A study of Homo sapiens with 4 samples.

Results

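The glycosyltransferases of the Golgi build the sugar chains of secreted and membrane proteins and of glycolipids. Described here are 63 genes for such enzymes, chosen by gene symbol from the 15279 named rows of one expression table. They were sorted, also by symbol, into 12 families named for the sugar and linkage added. The table compared 2 libraries of MDA-MB-231Br, a line labelled as a brain metastasis of breast cancer, with 2 libraries of its parent MDA-MB-231, a triple-negative human breast cancer line. Both lines carry no stated treatment and grew in DMEM with 10% FBS, penicillin and streptomycin, so the line itself is the only labelled difference. The choice used no expression value. Libraries of each line are called A and B in column order, because the columns name only the line. Each group is a single cell line, and the labels do not say that its libraries came from separate cultures, so every p-value here reflects library-to-library spread, which may be technical.

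Golgi enzymes act in sequence, each adding a single sugar to the product of an earlier enzyme, and enzymes that use the same acceptor compete for it. Sialyltransferases add sialic acid, usually as the last sugar, and so set much of the negative charge of the cell surface and the binding of lectins such as selectins, siglecs and galectins. In breast cancer, sialylated, fucosylated and branched glycans have been linked to adhesion and spread, and the ganglioside sialyltransferase gene ST6GALNAC5 was tied by earlier work to passage of breast cancer cells into the brain.

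Reads on named genes numbered 25835225 to 30771290 per library, of which the 63 genes held 0.280% to 0.332%. Brain metastatic library B stood apart from library A in other genes. The interferon-stimulated gene IFIT2, picked because it was already known to differ, had normalized read counts of 357 and 19259.5 (libraries A and B) in brain metastatic cells, against 665 and 709 in parental cells. All 8 markers chosen for the MDA-MB-231 phenotype, such as VIM and CD44, were present in every library, with VIM and MSN called higher and CAV1 called lower in brain metastatic cells. The oestrogen receptor gene ESR1, of luminal tumours, had counts of 6.72 and 26.5 in brain metastatic and 0 and 1.94 in parental libraries and did not pass the filter. Of 25 markers chosen for neurons, glia, leukocytes, endothelium and fibroblasts, 6 were measured, with a summed level of 154 and 167 CPM (reads scaled to library size) in brain metastatic and 101 and 115 CPM in parental libraries, most of it from MBP. The endothelial marker CDH5 had no read in brain metastatic library B but had reads in library A and in both parental libraries. The other endothelial marker measured, PECAM1, had counts of 193 and 218 in brain metastatic and 70.8 and 146 in parental libraries. PECAM1 was not called. The part of such cells in the results was not tested.

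Brain metastatic cells had more transcript of ST6GAL1, ST8SIA4 and GALNT14, each at least 6-fold by the ratio of mean normalized read counts, and less of ST6GALNAC2, ST6GALNAC6, GALNT11 and GCNT1. Of the 63 genes, 59 passed the filter on low counts, and 14 of these were called at an adjusted p below 0.05 by limma-trend on log2(value + 1), 10 higher and 4 lower. Across all 14424 genes tested, 8.61% were called higher and 5.8% lower, against 16.9% and 6.78% of the 59 tested glycosyltransferase genes. Counts of calls within single families, given below, rest on few genes and do not set a family apart from these shares of all genes. The median log2 fold change of the 59 was 0.0035, close to the 0.014 of all genes, and the median size of a change was 0.54 against 0.47. Both brain metastatic libraries lay above both parental libraries for 19 of the 59 and below them for 18, where all genes gave 31.7% and 29.7%. In RNA from whole cultures, a change in the share of expressing cells and a change in the level per cell cannot be told apart.

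**Figure D1:**
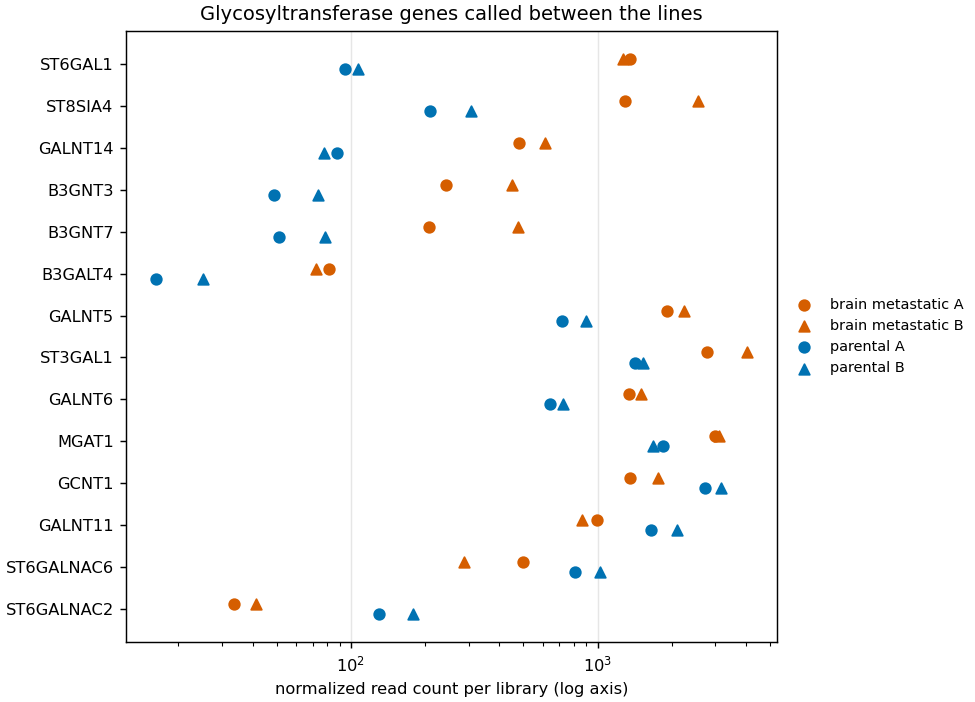
Normalized read counts (log axis) of the 14 called genes in each library, brain metastatic (orange) drawn above parental (blue), circles for library A and triangles for library B. Genes run from the largest increase, ST6GAL1, to the largest decrease, ST6GALNAC2. The lines' libraries overlap for none of the 14, which were called on these same values. Of all genes tested, 31.7% lay above and 29.7% below without overlap.

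The calls differed in how many alternative fits kept them. ST6GAL1, ST8SIA4 and GALNT14 were called in each of 11 alternative fits. B3GNT3 was lost only without parental library A (adjusted p = 0.0745). The others lost their calls when either parental library was left out. A lost call did not require a large move. The log2 fold change moved by at most 0.0645 in MGAT1, whose call was lost, and by up to 0.492 in ST8SIA4, whose call was kept. Each of the 14 kept its direction, which leaving out a library could not reverse, since the lines' libraries did not overlap. Without parental library A the fit called 3 of the 59 and 2.92% of all genes, and without parental library B 4 of the 59 and 2.97%. With brain metastatic library A left out, it called 22 of the 59 and 36.4% of all genes, and with library B left out 21 and 21.8%. On recovered reads, DESeq2 called 16 of the 59 and 20.2% of all genes, and edgeR's quasi-likelihood test 13 and 15.4%.

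**Figure D2:**
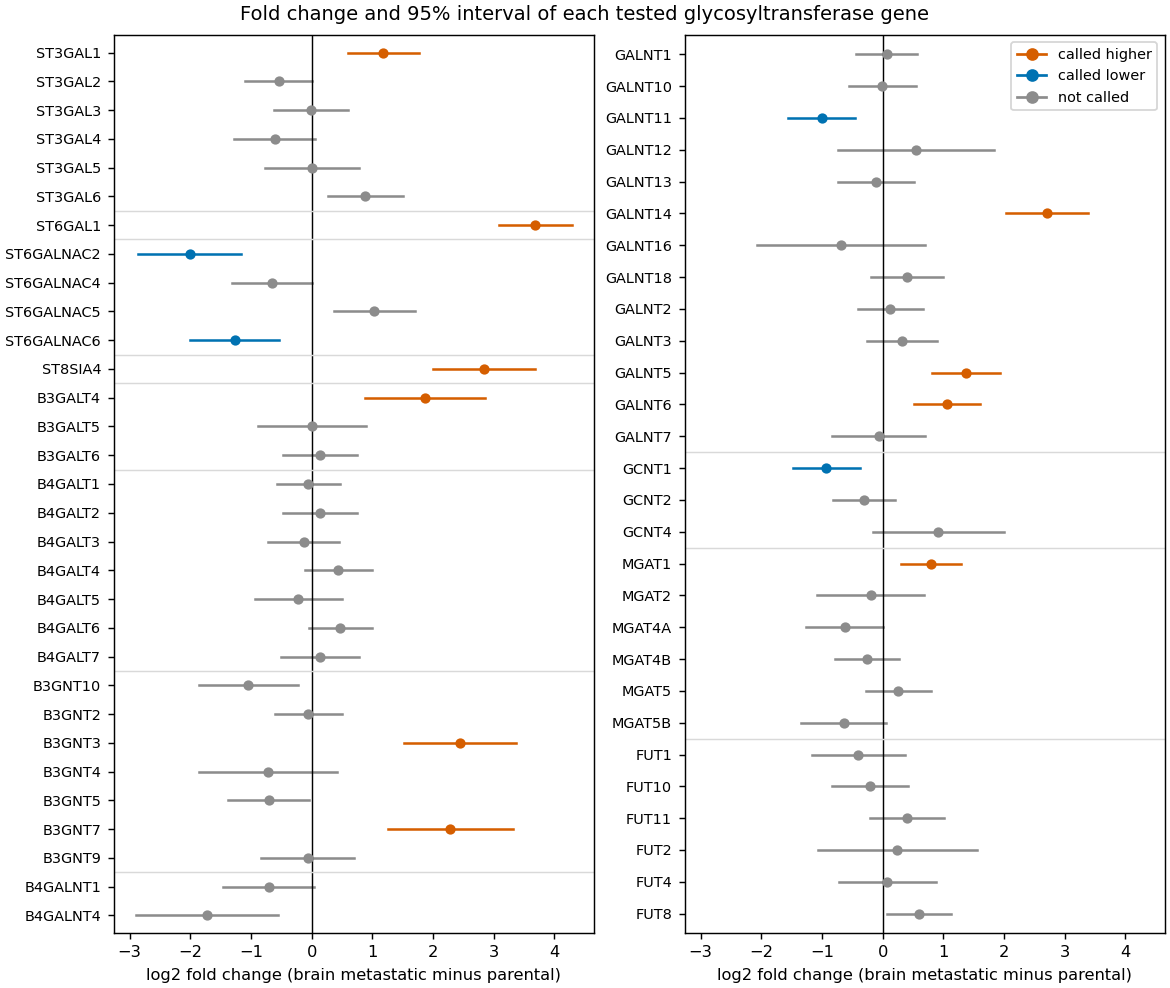
Log2 fold change (brain metastatic minus parental, on the log2(value + 1) scale) and 95% interval of each of the 59 tested genes, with grey lines between families. Orange and blue mark the 10 genes called higher and the 4 called lower, and the widest intervals belong to genes with few reads such as GALNT16.

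Promoters are shown for the 3 genes with the largest increases and, among called genes with a listed promoter, the one with the largest decrease, since these genes lead the comparison. RefSeq start sites on GRCh38.p14 matched 46 of the 63 genes, and each window runs from 250 bases before to 50 bases after the start. Capitals mark matches of 4 motifs on either strand, none of which overlapped another in these windows. The motifs were the TATA element (searched as TATAAA), the pentamer of the CCAAT box, the GC box (searched as GGGCGG) and the AP-1 element (searched as TGANTCA). The ST6GAL1 window lies at chr3:186930276-186930575 on the plus strand, ST8SIA4 at chr5:100903233-100903532 on the minus strand, GALNT14 at chr2:31138391-31138690 on the minus strand (the first of 2 listed starts) and ST6GALNAC6 at chr9:127905275-127905574 on the minus strand (the first of 3).
ST6GAL1: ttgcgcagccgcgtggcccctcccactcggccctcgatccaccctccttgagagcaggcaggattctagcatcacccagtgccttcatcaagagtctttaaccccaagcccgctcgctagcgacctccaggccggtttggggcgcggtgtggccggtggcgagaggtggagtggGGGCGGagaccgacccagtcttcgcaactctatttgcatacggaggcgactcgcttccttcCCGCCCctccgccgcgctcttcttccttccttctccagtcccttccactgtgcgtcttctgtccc
ST8SIA4: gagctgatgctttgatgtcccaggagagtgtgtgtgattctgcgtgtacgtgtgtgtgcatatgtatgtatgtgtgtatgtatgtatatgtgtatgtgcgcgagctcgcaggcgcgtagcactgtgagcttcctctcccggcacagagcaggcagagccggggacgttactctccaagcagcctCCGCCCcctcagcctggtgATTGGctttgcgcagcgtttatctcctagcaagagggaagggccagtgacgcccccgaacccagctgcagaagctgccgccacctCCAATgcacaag
GALNT14: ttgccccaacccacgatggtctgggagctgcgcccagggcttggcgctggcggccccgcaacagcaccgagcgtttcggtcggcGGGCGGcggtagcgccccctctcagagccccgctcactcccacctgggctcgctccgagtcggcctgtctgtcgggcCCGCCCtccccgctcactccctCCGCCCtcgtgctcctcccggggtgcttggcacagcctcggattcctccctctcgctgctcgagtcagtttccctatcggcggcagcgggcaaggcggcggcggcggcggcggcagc
ST6GALNAC6: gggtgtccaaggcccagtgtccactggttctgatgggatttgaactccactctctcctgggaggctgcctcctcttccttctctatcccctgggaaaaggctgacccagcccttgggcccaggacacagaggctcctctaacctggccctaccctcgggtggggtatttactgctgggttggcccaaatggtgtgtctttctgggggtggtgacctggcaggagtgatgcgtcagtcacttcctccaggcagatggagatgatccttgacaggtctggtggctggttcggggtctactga
The 3 promoters of the increased genes held 24, 16 and 35 CpG dinucleotides (ST6GAL1, ST8SIA4 and GALNT14) and that of ST6GALNAC6 held 3. GC boxes numbered 2, 1 and 3 in the same order and 0 in ST6GALNAC6, and CCAAT boxes were found only in ST8SIA4, which had 2. Over the 82 listed promoters of the glycosyltransferase genes, 65.9% held a GC box and 35.4% a CCAAT box, against 44.9% and 34.6% of all 34943 promoters. A TATA box was in 1.22% of them against 11.6% of all, and an AP-1 element in 3.66% against 7.72%. The sets are unlike, since the glycosyltransferase genes all have rows here and the full set was not limited to such genes. Median GC content also differed, at 66% for the glycosyltransferase promoters and 58.7% for all. Whether the contrasts are particular to these genes was therefore not tested. Which start the cells used was not measured.

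Among sialyltransferases, ST6GAL1 and ST8SIA4 rose by the largest folds, ST3GAL1 rose by a smaller fold, and ST6GALNAC2 and ST6GALNAC6 fell. ST6GAL1 makes the α2,6-sialyl cap on galactose of N-glycan antennae. Its normalized read counts were 1351 and 1263 in the brain metastatic line, against 94.7 and 107 in the parental line (A, then B, here and throughout). The means were 1307 ± 62.2 in brain metastatic and 101 ± 8.48 in parental cells (SD, n = 2 each). The brain metastatic values lay close together and far above the parental ones, with a 13.0-fold ratio of means (log2 fold change 3.69 ± 0.26 SE, adjusted p = 0.000277). ST8SIA4 encodes a polysialyltransferase, which extends chains of α2,8-linked sialic acid on proteins such as the neural cell adhesion molecule. Its counts were 1292 and 2556 in brain metastatic libraries, against 209 and 307 in parental libraries. Their means were 1924 ± 894 in brain metastatic and 258 ± 68.9 in parental cells (SD, n = 2 each). Library B was well above library A in the brain metastatic line, and both were above the parental pair (7.46-fold, log2 fold change 2.84 ± 0.37 SE, adjusted p = 0.00295). No other member of either linkage class, α2,6 to galactose or α2,8, was among the rows analysed.

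The ST3GAL enzymes add α2,3-linked sialic acid to galactose, ST3GAL1 mainly on core 1 O-glycans. ST3GAL1 had counts of 2775 and 4036 in brain metastatic libraries, against 1415 and 1534 in parental libraries, without overlap and with a log2 fold change of 1.18 ± 0.25 SE and an adjusted p of 0.021. The 5 further ST3GAL genes were not called with all libraries. ST3GAL6, which acts on N-glycan and glycolipid antennae, had 1263 and 1303 in brain metastatic and 572 and 843 in parental libraries (log2 fold change 0.89, 95% interval 0.27 to 1.5, adjusted p = 0.0622). ST3GAL6 was called by DESeq2 (adjusted p = 0.0359) and without brain metastatic library A or B (adjusted p = 0.012 and 0.0281), but not without parental library A or B (adjusted p = 0.380 and 0.159) or in the 6 further fits. Its antisense neighbour ST3GAL6-AS1, which shares exon sequence with it, had 57.6 and 54.0 in brain metastatic and 11.1 and 21.3 in parental libraries, and the strand of reads is not stated. ST3GAL2 and ST3GAL4 lay below parental in both brain metastatic libraries with log2 fold changes of -0.54 and -0.61 (adjusted p = 0.16 and 0.195), and ST3GAL4 was called when brain metastatic library A was left out (adjusted p = 0.0078). ST3GAL3 and ST3GAL5, the GM3 synthase, overlapped between the lines, at -0.01 and 0.01.

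The ST6GALNAC enzymes add α2,6-linked sialic acid to N-acetylgalactosamine (GalNAc), and 2 of the 4 measured fell. ST6GALNAC2, which acts on O-glycans, had counts of 33.6 and 41.3 in brain metastatic libraries, against 131 and 178 in parental libraries. The 4 values did not overlap, and the ratio of means was 0.242 (log2 fold change -2.01 ± 0.37 SE, adjusted p = 0.0115). ST6GALNAC6, a sialyltransferase of gangliosides and of disialyl Lewis a, had 496 and 286 in brain metastatic libraries, against 809.7 and 1022 in parental libraries (log2 fold change -1.27 ± 0.32 SE, adjusted p = 0.036). ST6GALNAC4, another O-glycan enzyme, had 351 and 248 in brain metastatic and 444 and 489 in parental libraries and was not called (-0.66, adjusted p = 0.158). ST6GALNAC5 makes the ganglioside GD1α. It had 343 and 278 in brain metastatic libraries, against 158 and 144 in parental libraries, a 2.06-fold ratio of means without overlap. Its log2 fold change was 1.03 (95% interval 0.36 to 1.70), and it missed the threshold (adjusted p = 0.0504) with all libraries but was called by DESeq2 (adjusted p = 0.0285), under the filter of 1 CPM and without either brain metastatic library. It was not called in the 7 further fits, among them edgeR's quasi-likelihood test (adjusted p = 0.0508), no filter (adjusted p = 0.0636) and those without parental library A or B (adjusted p = 0.231 and 0.386).

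Per length of the longest transcript, the summed level of the 12 sialyltransferase genes was similar between the lines, at 98.5 and 95.2 RPKM (reads per kilobase of transcript, scaled to library size) in brain metastatic libraries and 78.8 and 94.2 RPKM in parental libraries, while its make-up differed. ST6GAL1 made up 10.4% and 9.9% of the sum in brain metastatic libraries, against 0.936% and 0.866% in parental libraries. ST8SIA4 made up 7.71% and 15.6% in brain metastatic libraries, against 1.60% and 1.93% in parental libraries. The 4 ST6GALNAC genes together made up 19.4% and 13.7% in brain metastatic libraries, against 33.5% and 32.8% in parental libraries. The 6 ST3GAL genes made up 62.5% and 60.9% in brain metastatic and 63.9% and 64.4% in parental libraries. Within the ST3GAL genes, ST3GAL1 held 15% and 22.3% of the whole sum in brain metastatic libraries, against 9.85% and 8.76% in parental libraries. ST3GAL4 held 22.5% and 14.4% in brain metastatic libraries, against 31.1% and 32.2% in parental libraries. With the median transcript length the picture differed in part. The sum was then 469 and 535 RPKM in brain metastatic libraries, against 289 and 319 RPKM in parental libraries. ST6GAL1 held 18% and 14.5% in brain metastatic libraries, against 2.10% and 2.10% in parental libraries, and ST8SIA4 8.33% and 14.2% in brain metastatic, against 2.25% and 2.93% in parental libraries. The ST3GAL genes held 64.6% and 65.4% in brain metastatic libraries, against 78.4% and 77.2% in parental libraries, and the ST6GALNAC genes 9.07% and 5.81% in brain metastatic, against 17.3% and 17.8% in parental libraries. ST3GAL1 held 30.8% and 38.7% in brain metastatic libraries, against 26.2% and 25.2% in parental libraries. The shares are descriptions, since 2 libraries against 2 cannot give an exact two-sided permutation p below 0.333.

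**Figure D3:**
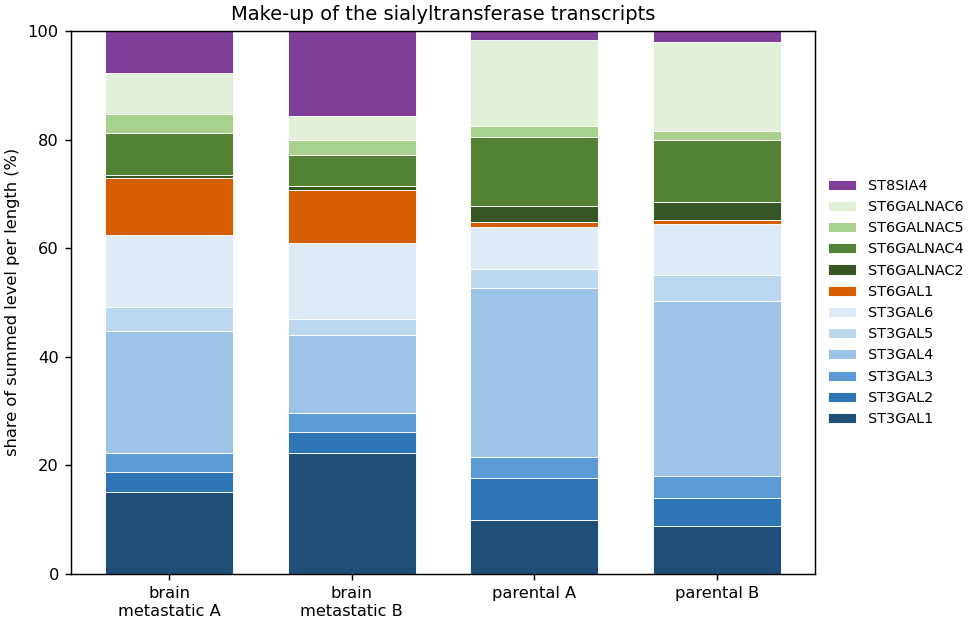
Share (%) of each of the 12 sialyltransferase genes in their summed level per length (longest transcript), by library. The orange band (ST6GAL1) is 10.4% and 9.9% in brain metastatic libraries and below 1% in parental libraries, and the green bands (ST6GALNAC genes) together take less room in brain metastatic libraries, although that of ST6GALNAC5 does not.

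Polypeptide GalNAc-transferases start mucin-type O-glycans by placing GalNAc on serine or threonine, and the isoforms prefer different peptides. Of 13 measured, GALNT14, GALNT5 and GALNT6 rose, GALNT11 fell and 9 were not called, among them GALNT1 and GALNT2, the broadly expressed isoforms. GALNT14, known for glycosylating TRAIL death receptors, had counts of 482 and 612 in brain metastatic libraries, against 87.9 and 77.6 in parental libraries. Its means were 547 ± 92.2 in brain metastatic and 82.7 ± 7.27 in parental cells (SD, n = 2 each). Both brain metastatic values stood clear of the parental pair, at 6.61-fold (log2 fold change 2.70 ± 0.30 SE, adjusted p = 0.00151). GALNT5 had 1907 and 2241 in brain metastatic libraries, against 716 and 895 in parental libraries (log2 fold change 1.37 ± 0.24 SE, adjusted p = 0.010). GALNT6, studied for its part in mammary tumours, had 1342.5 and 1503 in brain metastatic libraries, against 642 and 723 in parental libraries (log2 fold change 1.06 ± 0.23 SE, adjusted p = 0.023). GALNT6 shares exon sequence with SLC4A8 on the opposite strand, whose counts were 109 and 177 in brain metastatic and 62.3 and 69.8 in parental libraries. GALNT11, which glycosylates the Notch1 receptor, had 994 and 865 in brain metastatic libraries, against 1651 and 2103 in parental libraries (log2 fold change -1.01 ± 0.24 SE, adjusted p = 0.0313). Per length of the longest transcript GALNT1 was the highest of the family in the mean of all libraries, and GALNT3 was with the median length (GALNT1 38.7 RPKM in brain metastatic and 38.1 RPKM in parental cells). The log2 fold change of GALNT1 was 0.06 (95% interval -0.44 to 0.57).

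On the O-glycan that GALNT enzymes start, core 1 is either branched by GCNT1, the core 2 enzyme, extended by B3GNT3 or capped by ST3GAL1. GCNT1 fell, with counts of 1348 and 1761 in brain metastatic libraries, against 2729 and 3152 in parental libraries (log2 fold change -0.93 ± 0.24 SE, adjusted p = 0.0392). B3GNT3, which extends core 1 in ligands of L-selectin, rose to 242 and 449 in brain metastatic libraries, against 48.6 and 73.7 in parental libraries (log2 fold change 2.44 ± 0.40 SE, adjusted p = 0.00757). Per length of the longest transcript, the ratio of ST3GAL1 to GCNT1 was 1.77 and 1.97 in brain metastatic libraries, against 0.446 and 0.418 in parental libraries. With the median length it was 12.1 and 13.5 in brain metastatic libraries, against 3.06 and 2.87 in parental libraries. Which gene was the higher in parental cells thus depended on the length used. The mean ratio was 4.33-fold higher in brain metastatic cells, a fold that does not depend on the transcript lengths used. GCNT2, the I-branching enzyme and the most abundant of its family, was not called (-0.31, 95% interval -0.82 to 0.20), nor was GCNT4 (0.92, 95% interval -0.17 to 2.00).

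The B3GNT family extends chains with β1,3-linked N-acetylglucosamine, and 2 of its 7 measured genes rose while none fell by the test. B3GNT7, an enzyme of keratan sulfate chains, had counts of 206 and 474 in brain metastatic libraries, against 51.2 and 78.6 in parental libraries (log2 fold change 2.28 ± 0.45 SE, adjusted p = 0.0152). Its log2 fold change was 1.69 without brain metastatic library B and 2.88 without library A. B3GNT10, placed in this family by its symbol alone, lay below parental in both brain metastatic libraries and was not called. Its counts were 116 and 217 in brain metastatic and 332 and 325 in parental libraries (log2 fold change -1.04, 95% interval -1.86 to -0.23, adjusted p = 0.0864). B3GNT5, the starter of lacto-series glycolipids, had 1028 and 1506 in brain metastatic and 1679.9 and 2465 in parental libraries and was likewise not called (-0.71, adjusted p = 0.139). B3GNT2, the main poly-N-acetyllactosamine enzyme, overlapped between the lines (-0.05, 95% interval -0.60 to 0.49).

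Among the N-glycan branching genes only MGAT1, which adds the first antenna and so opens the way to hybrid and complex N-glycans, was called with all libraries. It had counts of 2989 and 3105 in brain metastatic libraries, against 1839 and 1682 in parental libraries (1.73-fold, log2 fold change 0.79 ± 0.22 SE, adjusted p = 0.046). It was not called by edgeR's quasi-likelihood test (adjusted p = 0.0506) or under TMM scaling (adjusted p = 0.0514). The later branching genes MGAT2, MGAT4A, MGAT4B, MGAT5 and MGAT5B had log2 fold changes of -0.64 to 0.25 and adjusted p of 0.163 to 0.758. MGAT5, whose β1,6 branch is tied to metastasis in other work, had 3854 and 3846 in brain metastatic libraries, against 3702 and 2813 in parental libraries (0.25, 95% interval -0.28 to 0.79). MGAT3, the gene of the bisecting enzyme, had no read in brain metastatic cells and 2 reads in parental cells, and a count of 0 allows up to 3 reads over the brain metastatic libraries, or 0.0556 CPM. FUT8 adds the core fucose and had 6729 and 7969 in brain metastatic libraries, against 4363 and 5324 in parental libraries. That pair of ranges did not overlap, but the gene was not called (log2 fold change 0.60, 95% interval 0.08 to 1.13, adjusted p = 0.115).

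None of the 7 β1,4-galactosyltransferase genes was called, and their log2 fold changes ran from -0.22 in B4GALT5 to 0.48 in B4GALT6. B4GALT1, the main enzyme of N-glycan galactose and the highest of the family per transcript length, had counts of 5320.1 and 6689.7 in brain metastatic libraries, against 6223 and 6147 in parental libraries (-0.05, 95% interval -0.57 to 0.46). B3GALT4, the ganglioside GM1 synthase, rose to 81.6 and 72.1 in brain metastatic libraries, against 16.2 and 25.2 in parental libraries (3.71-fold, log2 fold change 1.87 ± 0.43 SE, adjusted p = 0.0263). B3GALT5, of type 1 chains, and B3GALT6, of the proteoglycan linker, were not called (0.00 and 0.14). B4GALNT1, which makes the ganglioside GM2 that B3GALT4 uses, had 81.6 and 104 in brain metastatic and 161 and 142 in parental libraries and was not called (-0.71, adjusted p = 0.178). B4GALNT4, which adds GalNAc to N-acetylglucosamine, had 19.2 and 9.54 in brain metastatic libraries, against 41.8 and 53.4 in parental libraries, a ratio of means of 0.302 that was not called (log2 fold change -1.72, 95% interval -2.90 to -0.55, adjusted p = 0.0586).

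None of the 6 tested fucosyltransferase genes was called, with log2 fold changes from -0.40 in FUT1 to 0.60 in FUT8. FUT4, an enzyme of the Lewis x antigen, overlapped between the lines (0.08, 95% interval -0.72 to 0.88). The Lewis enzyme gene FUT3 and the neural Lewis x enzyme gene FUT9 had 0 reads in each library, which allows up to 3 reads over a line, or 0.0556 CPM in brain metastatic and 0.0514 CPM in parental cells. B4GALNT3 had 3 reads in brain metastatic and 10 in parental cells. FUT3, FUT9, MGAT3 and B4GALNT3 are the 4 genes that did not pass the filter.

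The 2 brain metastatic libraries lay on the same side of the parental mean for 44 of the 59 genes, against 11098 of all 14424. In 36 of the 59, library B was the higher, a count given without the share of all genes. The median absolute log2 gap between the brain metastatic libraries was 0.34 for the 59 and 0.38 for all genes, and that between the parental libraries 0.29 and 0.26. GALNT12 had the widest gap of the genes on opposite sides, with counts of 68.2 and 219 in brain metastatic libraries, against 64.0 and 109.6 in parental libraries. GALNT7, an enzyme that follows up on peptides already carrying GalNAc, had 2024 and 4178 in brain metastatic libraries, against 3042 and 3044 in parental libraries. The lactosylceramide synthase gene B4GALT5 had 3793 and 7186 in brain metastatic libraries, against 6047 and 6098 in parental libraries. Neither was called, and their log2 fold changes of -0.07 and -0.22 average a lower library A and a higher library B. Other genes on opposite sides had the higher value in library A, namely ST3GAL5, B4GALT2, B3GNT9, B4GALT3, B3GNT2 and ST3GAL3. Of these, ST3GAL5 had the widest gap, with 721 and 473 in brain metastatic libraries, against 449 and 746 in parental libraries. Whether the high IFIT2 of library B, given above, has a part in any of these gaps was not tested.

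**Figure D4:**
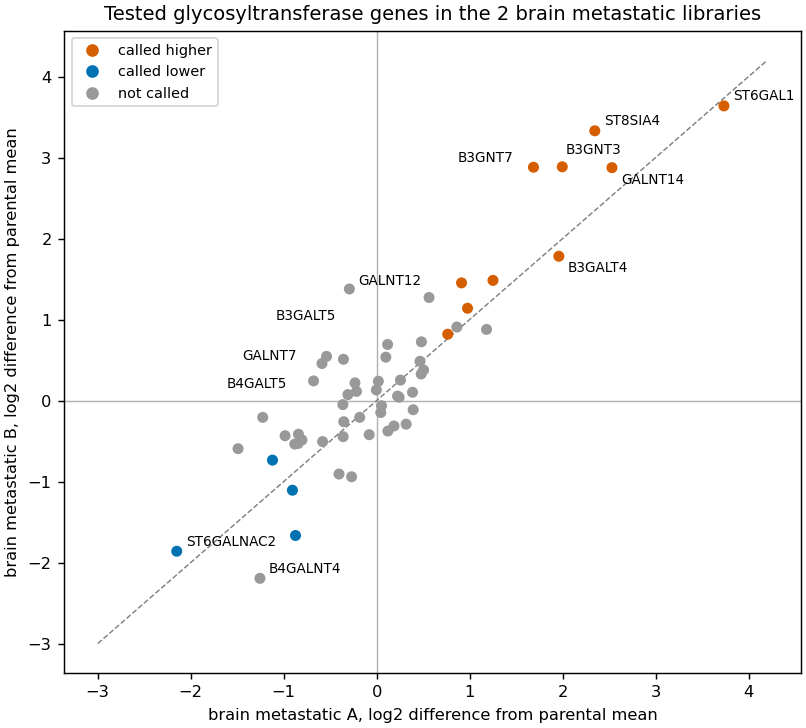
Log2 difference from the parental mean in brain metastatic library A (x axis) and B (y axis) for the 59 tested genes, with the diagonal dashed. ST6GAL1 lies near the diagonal, ST8SIA4, B3GNT3 and B3GNT7 above it, and GALNT12, GALNT7, B4GALT5 and B3GALT5 are below the parental mean in library A and above it in library B.

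Genes that supply, precede or carry the products of these enzymes were read from 8 lists with 166 entries, of which 138 genes were tested. Of these 13 were called higher and 5 lower, or 13.0% together, against 14.4% of all genes. By direction, all genes gave 8.61% higher and 5.8% lower. Counts within single lists, here and below, rest on few genes and do not set a list apart from these shares. In the sialic acid supply list 1 of 16 tested genes was called higher and 0 lower. It was NPL, the lyase that breaks sialic acid down, with counts of 97.0 and 107 in brain metastatic libraries, against 15.4 and 25.2 in parental libraries (log2 fold change 2.31, adjusted p = 0.0114). The makers and carrier of the sialic acid donor were not called, with log2 fold changes of -0.60 in GNE, 0.06 in NANS, -0.02 in CMAS and 0.20 in SLC35A1. The fucose supply list had 1 of 15 higher, GMPPA (0.85, adjusted p = 0.0498), a subunit tied to GDP-mannose supply. In the galactose and sugar transport list 1 of 16 was lower, SLC35A3, the Golgi carrier of UDP-N-acetylglucosamine, with 1932 and 2073 in brain metastatic libraries, against 3238 and 5028 in parental libraries (log2 fold change -1.01, adjusted p = 0.0405). Golgi structure genes had 1 of 24 higher, the tethering subunit COG1 (0.89, adjusted p = 0.0443), and 1 lower, GOLPH3 (-0.76, adjusted p = 0.0486), which retains glycosyltransferases in the Golgi.

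The list of core O-glycan and mannose-trimming genes had 3 of 19 tested members higher and 2 lower. MAN1A1, a Golgi mannosidase acting just before MGAT1, had counts of 825 and 825 in brain metastatic libraries, against 147 and 299 in parental libraries (log2 fold change 1.97, adjusted p = 0.0108). Its relative MAN1C1 fell to 5.76 and 9.54 in brain metastatic libraries, against 45.2 and 31.0 in parental libraries (-2.19, adjusted p = 0.0328). MAN2A1, the mannosidase acting just after MGAT1, rose by 0.95 on the log2 scale (adjusted p = 0.042). OGT, the nuclear and cytosolic O-GlcNAc transferase, had 5008 and 16153 in brain metastatic libraries, against 2639.8 and 1858 in parental libraries (2.02, adjusted p = 0.0308), with log2 fold changes of 2.87 without library A and 1.18 without library B. B3GALNT1, the globoside synthase gene, fell (-1.24, adjusted p = 0.0181). Core 1 synthase C1GALT1 and its chaperone C1GALT1C1 were not called (0.21 and 0.77, adjusted p = 0.581 and 0.0685).

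Glycolipid and proteoglycan-linker genes had 2 of 18 tested members higher and 1 lower. UGCG, which makes the glucosylceramide that starts most glycolipids, had counts of 10252 and 6857 in brain metastatic libraries, against 16595 and 23399.8 in parental libraries (log2 fold change -1.23, adjusted p = 0.0263). CHSY3, a chondroitin synthase gene, rose to 349 and 434 in brain metastatic libraries, against 41.0 and 61.1 in parental libraries (2.93, adjusted p = 0.00196), and EXTL3 of heparan sulfate synthesis rose by 0.94 (adjusted p = 0.0359). Carbohydrate sulfotransferases and their donor enzymes had 3 of 16 higher and 0 lower, namely CHST10 (1.24), CHST11 (1.06) and the donor synthase PAPSS1 (0.99), with adjusted p of 0.0234 to 0.0316. Mucin-type carriers and lectins had 2 of 14 higher and 0 lower. The membrane mucin gene MUC15 had 802 and 1235 in brain metastatic libraries, against 2.56 and 0.970 in parental libraries (log2 fold change 8.55, which depends on the pseudocount, adjusted p = 0.000124). The galectin gene LGALS8 rose by 1.70 on the log2 scale (adjusted p = 0.00678). Of the 18 called genes in these lists, 2 were called without parental library A (CHSY3 and MUC15) and 3 without parental library B (CHSY3, MUC15 and MAN1A1). When brain metastatic library A was left out, 18 were called, and when library B was left out 15, with COG1, GOLPH3 and MAN2A1 lost.

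**Figure D5:**
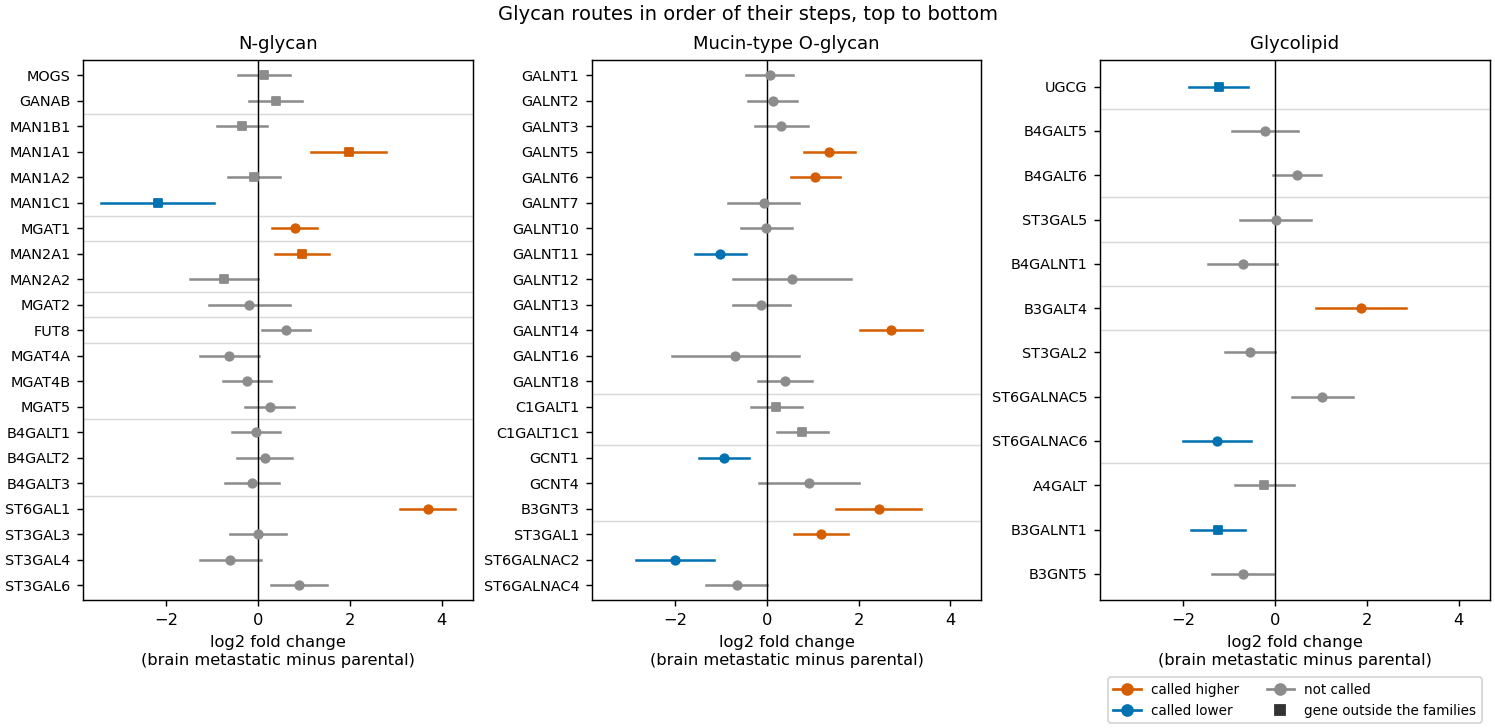
Log2 fold change (brain metastatic minus parental) and 95% interval along 3 routes, steps running from top to bottom, circles for the glycosyltransferase families and squares for other genes. The N-glycan route has 4 of 21 genes called higher (MAN1A1, MGAT1, MAN2A1, ST6GAL1) and 1 lower, the mucin-type O-glycan route 5 of 21 higher and 3 lower, and the glycolipid route 1 of 12 higher (B3GALT4) and 3 lower (UGCG, ST6GALNAC6, B3GALNT1), where all genes gave 8.61% higher and 5.8% lower and the routes were drawn up after values were seen.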

How the data were processed

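Values came from 1 deposited RNA-seq table of MDA-MB-231Br and MDA-MB-231 libraries. Per the submitters' processing notes, the tools included HISAT2, featureCounts and DESeq2 and the build was GRCh37, without versions. The annotation, strand setting and read length are not given in the sources used. The deposited values are a read signal per gene divided by a size factor of the library, called normalized read counts in the text. Whole reads were recovered from the step size of each library for 100% of values, within 0.01 reads. Rows without a gene name (67, with 0.031% to 0.0369% of reads) stayed out.

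Low genes were removed with filterByExpr of edgeR applied to recovered reads (at least 10 reads and a total of 15), leaving 14424 of 15279 named rows. The main test was limma-trend on log2(value + 1), with Benjamini-Hochberg adjustment over all tested genes and a threshold of 0.05. A log2 fold change is brain metastatic minus parental on that scale, which understates changes of low genes. Intervals are 95% intervals of that fit, and errors marked SE are its standard errors. The limit of 3 reads for a count of 0 covers counting error only. Alternatives were edgeR's quasi-likelihood test (2228 genes called, against 2079 by limma-trend) and DESeq2 on recovered reads, TMM scaling, other filters and pseudocounts, and leaving out each library with the same genes tested. Where a line then had 1 library, that library was assumed to vary like the others. RPKM and CPM were computed from recovered reads, RPKM with GENCODE v29 transcript lengths matched by symbol (63 of 63 genes). Shared exons were read from the same release, which is for GRCh38, so the table's genes carry no coordinates here.

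The genes, families, related lists, markers and alternatives were chosen with earlier results of these data known. Named by rule were each called gene, the highest gene of each family per length, uncalled genes without overlap and at least 2-fold apart, genes without reads, ST6GALNAC5, and up to 2 called genes per direction in each related list. Routes, motifs and all further genes named were chosen after values were seen. Software was Python 3.11.15 and R 4.3.3 with DESeq2 1.42.0, edgeR 4.0.16 and limma 3.58.1.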

Additional observations from a re-analysis of the deposited data

How the results depend on the processing

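Changing the test, scaling, filter or pseudocount moved few calls of the glycosyltransferase genes. Across these 7 alternatives 13 to 16 of them were called, against 14. Of all genes 1869 (no filter) to 2910 (DESeq2) were called, against 2079. MGAT1 was lost with edgeR's quasi-likelihood test and TMM scaling. ST3GAL6 and ST6GALNAC5 were gained with DESeq2, and ST6GALNAC5 with the filter of 1 CPM. Leaving out a library moved the counts much more. All genes called ranged from 421 to 5257, glycosyltransferase genes called higher from 3 to 15, and those called lower from 0 to 9, with the low ends at a lone parental library. The cause was not tested. None of the 14 called genes changed direction under another test, scaling, filter or pseudocount. Leaving out a library could not reverse them, since the lines' libraries did not overlap for these genes. Of the 45 not called, 20 changed direction when some library was left out, and 3 (B3GALT5, GALNT7 and ST3GAL5, all among the 20) under another test or scaling. The 20 included 4 genes that were the highest of their families per length, B3GALT6 (log2 fold change -0.026 to 0.31), B4GALT1 (-0.22 to 0.11), B3GNT2 (-0.22 to 0.12) and GALNT1 (-0.048 to 0.18). With the median transcript length in place of the longest, the gene highest per length was unchanged in 7 of 12 families. ST3GAL1 took the place of ST3GAL4, ST6GALNAC4 that of ST6GALNAC6, B3GNT5 that of B3GNT2, GALNT3 that of GALNT1 and MGAT5 that of MGAT4B. GMPPA was lost with edgeR's test, TMM scaling, no filter and either other pseudocount. No paired analysis was possible because the columns carry no replicate number. Genes with few reads, such as GALNT16 and B4GALNT4, had wide intervals.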
